A study of Mus musculus with 2 samples.

Results

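Langerhans cells were examined in 2 single-cell RNA libraries made from wounds of mouse back skin 5 days after injury, 1 labelled PBS and 1 labelled DTX, from tissue cut out with a 10 mm punch. According to the labels, both libraries came from C57BL/6 mice of the *Mrc1-DTR* genotype, 7 to 9 weeks old, that were given PBS or diphtheria toxin (DTX). In this line the toxin receptor is driven by the promoter of *Mrc1*, the gene of the mannose receptor CD206, so that the toxin is aimed at cells that use this promoter. The methods of the study describe the control mice differently, as wild-type mice given the toxin. The text of the study also gives the cell numbers of the libraries to the groups the other way round than the labels do. The libraries are named here by their labels, and every direction between them rests on those labels. The cell classes that the study describes for each group, apart from these numbers, follow the labels. The methods also state that live cells were sorted from several mice per group, and that there were technical but no biological replicates. With 1 library per treatment no test between the treatments was possible, and every interval given here is a 95% interval that covers counting error only. The difference between the libraries therefore cannot be told apart from a difference between mice, dissections or captures.

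Langerhans cells are antigen-presenting cells of the epidermis. They are seeded before birth from macrophage precursors, maintain themselves locally by division and depend on CSF1R and TGF-β signals. They sit between keratinocytes, to which they are held by adhesion molecules such as E-cadherin and EpCAM, and carry langerin (*Cd207*), the lectin of their Birbeck granules. On activation they loosen these contacts, gain the chemokine receptor CCR7 and travel to the draining lymph node.

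The cells were chosen from their own counts of unique molecular identifiers (UMIs), each of which stands for 1 captured RNA molecule. Of the cells with at least 500 detected genes and at most 6% mitochondrial UMIs, those with at least 3 UMIs of *Cd207*, at least 2 UMIs over *Epcam*, *H2-M2* and *Cldn1*, and at least 1% of their UMIs from *H2-Aa*, *H2-Ab1* and *Cd74* were taken. Cells with any UMI of *Xcr1* or *Clec9a*, which mark type 1 dendritic cells, or with 1% or more of their UMIs from *Krt5* and *Krt14* were left out. This gave 205 Langerhans cells of 15514 cells, 152 of 8326 in the PBS library and 53 of 7188 in the DTX library. The levels of these genes chose the cells and are given as a description. Of the cells with at least 3 UMIs of *Cd207*, 47 of 199 in the PBS and 30 of 83 in the DTX library failed another condition. Most of these (39 and 26 cells) lacked the UMIs of *Epcam*, *H2-M2* and *Cldn1*, and 19 and 4 had a UMI of *Xcr1* or *Clec9a*.

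The threshold on *Cd207* cut through few cells. Cells that met all other conditions with 1 or 2 UMIs of *Cd207* numbered 13 in the PBS and 3 in the DTX library, those with 3 to 5 numbered 8 and 2, and those with 20 or more numbered 128 and 43. Cells that met them without any UMI of *Cd207* numbered 136 and 61. In the 13 PBS cells just outside, *Mfge8* stood at 236 and the type 2 dendritic cell gene *Mgl2* at 563 CPM, the UMIs of a gene scaled to a common total of all genes. In the 8 PBS cells just inside they stood at 1747 and 890 CPM, and in the 128 cells with 20 or more UMIs at 5209 and 51.7 CPM. PBS cells with few *Cd207* UMIs thus carried less *Mfge8* and more *Mgl2*, and *Lyz2* went from 2507 CPM just inside to 417 CPM in the PBS cells with 20 or more. In the DTX library it stood at 485 CPM in the 2 cells just inside, at 6062 CPM in the 8 with 6 to 19 UMIs and at 1056 CPM in the 43 with 20 or more.

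The Langerhans cells held 1794204 UMIs in the PBS and 679395 in the DTX library. A cell had a median of 10297 UMIs (1791 to 39650) and 2693.5 genes in the PBS library, and of 11511 UMIs (1830 to 35035) and 2876 genes in the DTX library. The depth per cell was thus alike, but the DTX sums rest on 53 cells against 152. No barcode was shared between the Langerhans cells of the libraries, while 20 were shared among all filtered cells.

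*Mrc1*, whose promoter drives the toxin receptor, was low in Langerhans cells of both libraries. It had 64 UMIs in 20 of 152 PBS cells, which is 35.7 CPM. The DTX cells had 89 UMIs in 26.4% of them, which is 131 CPM, with 31.5% of these UMIs in 1 cell. These levels were raised by cells with few *Cd207* UMIs, in which *Mgl2* was highest too. *Mrc1* stood at 210 CPM in the 8 PBS and 728 CPM in the 2 DTX cells with 3 to 5 UMIs of *Cd207*. Cells with 6 to 19 lay between. In the 128 PBS and 43 DTX cells with 20 or more, *Mrc1* stood at 21.5 and 89.2 CPM. With every cell thinned to 2000 UMIs, it was detected in 3.31% (1.08% to 7.56%) of 151 PBS and 15.4% (6.88% to 28.1%) of 52 DTX cells. In cells chosen for *Krt5* and *Krt14*, which should lack the gene, the shares after the same thinning were 0.127% and 3.33%. Without thinning, at a median of 12805 and 15608 UMIs per cell, they were 3.29% and 6.35%, against 13.2% and 26.4% of Langerhans cells. In macrophage cells, defined below, *Mrc1* stood at 507 CPM in the PBS and 391 CPM in the DTX library, and after thinning it was detected in 54.1% and 40.4% of them.

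Langerhans cells made up 1.83% (1.55% to 2.14%) of the filtered cells of the PBS library and 0.737% (0.553% to 0.963%) of those of the DTX library, a log2 ratio of -1.31 (-1.79 to -0.85). Of cells with at least 1% of their UMIs from *H2-Aa*, *H2-Ab1* and *Cd74* they were 7.44% (152 of 2044) and 2.06% (53 of 2575). Of cells with a UMI of *Ptprc*, the gene of the leukocyte antigen CD45, they were 4.21% (101 of 2401) and 0.827% (43 of 5198). The share was lower in the DTX library on all 3 scales, and no pair of intervals overlapped.

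The make-up of the remaining cells differed between the libraries as well. Cells with at least 1% of UMIs from *Krt5* and *Krt14* and few MHC class II UMIs (keratinocyte cells) were 9.50% of PBS but 0.876% of DTX cells. Cells without *Ptprc* and with at least 1% of UMIs from *Col1a1*, *Col1a2* and *Col3a1* (fibroblast cells) were 35.7% and 8.06%, and macrophage cells, with at least 1% of UMIs from *Lyz2* and the *C1q* genes and none of *Cd207*, *Cd209a*, *Ccr7*, *Xcr1* and *Clec9a*, were 13.3% and 26.3%. Against the keratinocyte cells of the same library, Langerhans cells numbered 19.2 per 100 in the PBS and 84.1 per 100 in the DTX library, so that on this scale their order was the reverse. Dendritic cells differed less. Cells with at least 2 UMIs of *Cd209a* (the *Cd209a* cells, a gate for type 2 dendritic cells) were 1.99% (1.70% to 2.32%) and 2.43% (2.09% to 2.82%), and those with at least 2 UMIs of *Xcr1* and *Clec9a* (the *Xcr1*/*Clec9a* cells) were 0.685% and 0.612%. The share of epidermis in a punch sets such numbers too, and its part in the lower share of Langerhans cells was not tested.

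**Figure D1:**
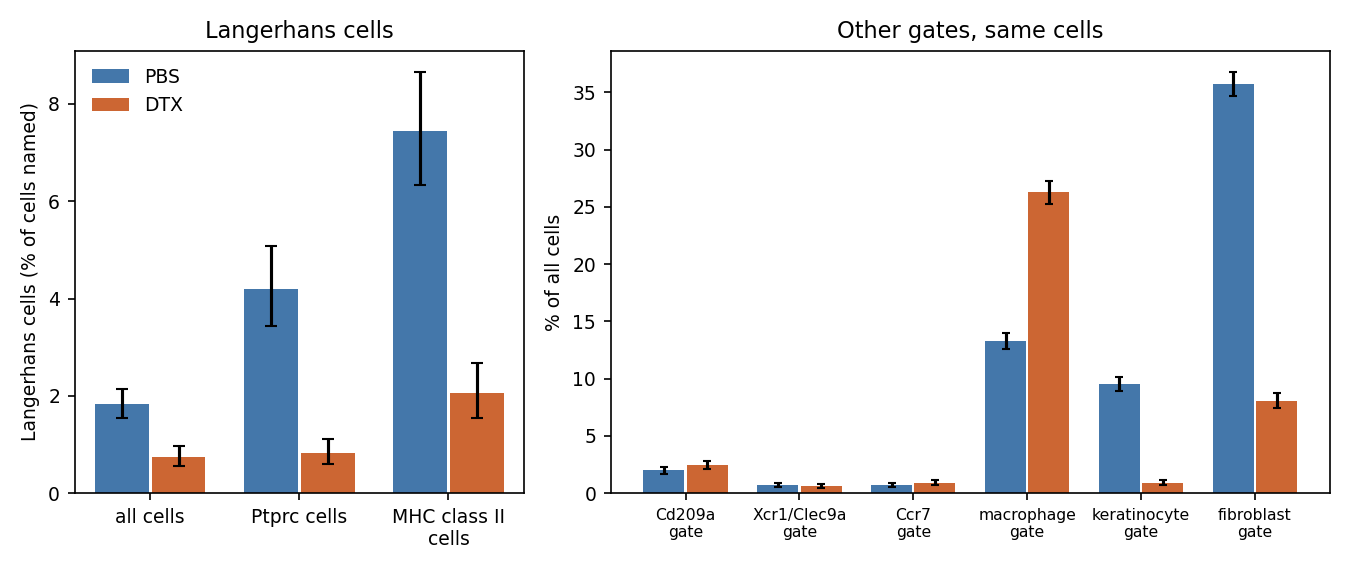
Left, Langerhans cells in percent of all filtered cells, of cells with a UMI of *Ptprc* and of MHC class II cells in the PBS (blue) and DTX (orange) library. Right, 6 other gates in percent of all filtered cells. Bars are 1 library each and lines are 95% Clopper-Pearson intervals for counting error. Langerhans cells were 1.83% of PBS and 0.737% of DTX cells, while keratinocyte cells went from 9.50% to 0.876%.

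The name was checked against 12 markers of Langerhans cells, of which the rule did not use 8. *Mfge8* (milk fat globule-EGF factor 8, which bridges phagocytes and dying cells) and *Ltc4s* (leukotriene C4 synthase) were not used to choose the cells. *Mfge8* stood at 4759 CPM in 148 of 152 PBS cells and 5188 CPM in 51 of 53 DTX cells, against 61.3 and 89.6 CPM in the *Cd209a* cells. *Ltc4s* stood at 393 and 406 CPM, against 8.13 and 13.3 CPM there. *Il1r2*, the decoy receptor of interleukin-1, stood at 2122 and 2139 CPM, *Ly75*, the endocytic receptor DEC-205, at 174 and 197 CPM, *Cdh1*, the gene of E-cadherin, at 220 and 261 CPM, and *Csf1r*, the receptor that Langerhans cells need to survive, at 413 and 518 CPM. These levels were alike in both libraries, with log2 ratios between 0.01 and 0.32. The last 4 genes were also present in cells of other kinds. *Il1r2* stood at 808 and 1304 CPM in *Cd209a* cells, *Csf1r* at 398 and 377 CPM in macrophage cells, *Ly75* at 201 and 230 CPM in mature dendritic cells (chosen by *Ccr7*) and *Cdh1* at 768 and 682 CPM in keratinocyte cells. *Mfge8* was found in other cells as well, at 363 and 219 CPM in mature dendritic and 198 and 250 CPM in fibroblast cells. Of the 8 markers outside the rule 7 were within 2-fold between the libraries. Few genes of any kind were not, since of all 4528 genes compared 1.68% were at least 2-fold higher and 2.47% at least 2-fold lower in the DTX library, so that a list with no or 1 such gene is near this background.

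Of the genes whose presence the rule required, *Cd207* stood at 8967 and 7727 CPM, *Epcam* at 971 and 1070 CPM, *Cldn1*, a claudin of tight junctions, at 916 and 930 CPM, and *H2-M2*, a nonclassical MHC class I gene, at 613 and 1088 CPM. Of these 4 genes *H2-M2* differed most between the libraries, with a log2 ratio of 0.82 (0.69 to 0.96). *Cd207* lies on chromosome 6 of GRCm38 (mm10) from 83671215 to 83677857 and *Mfge8* on chromosome 7 from 79133768 to 79149060, both on the minus strand in the GENCODE vM21 annotation. A single cell held a median of 88.5 UMIs of *Cd207* (3 to 486) in the PBS and of 96.0 (4 to 291) in the DTX library.

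Markers of most other blood cells were scarce. *Cd3e* had no UMI in either library, and the 6 neutrophil markers summed to 5.57 CPM in the PBS and 28.0 CPM in the DTX library. The 8 T and NK cell markers summed to 27.9 and 33.9 CPM, with *Cd2* the most abundant, and the 6 mast cell and melanocyte markers to 11.7 and 4.42 CPM. *Flt3*, a receptor of conventional dendritic cells, stood at 12.8 and 5.89 CPM. *Irf8* and *Klf4*, transcription factors that Langerhans cells share with them, were the most abundant of the type 1 and type 2 dendritic cell markers. Of 4 type 1 markers compared between the libraries none was past 2-fold, and of 8 type 2 markers only *Ccl17* was. The 12 macrophage markers summed to 3365 CPM in the PBS and 6069 CPM in the DTX Langerhans cells, with *Apoe* the most abundant in the first and *Lyz2* in the second. Over 1% of the UMIs came from them in 13 PBS and 9 DTX cells.

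**Figure D2:**
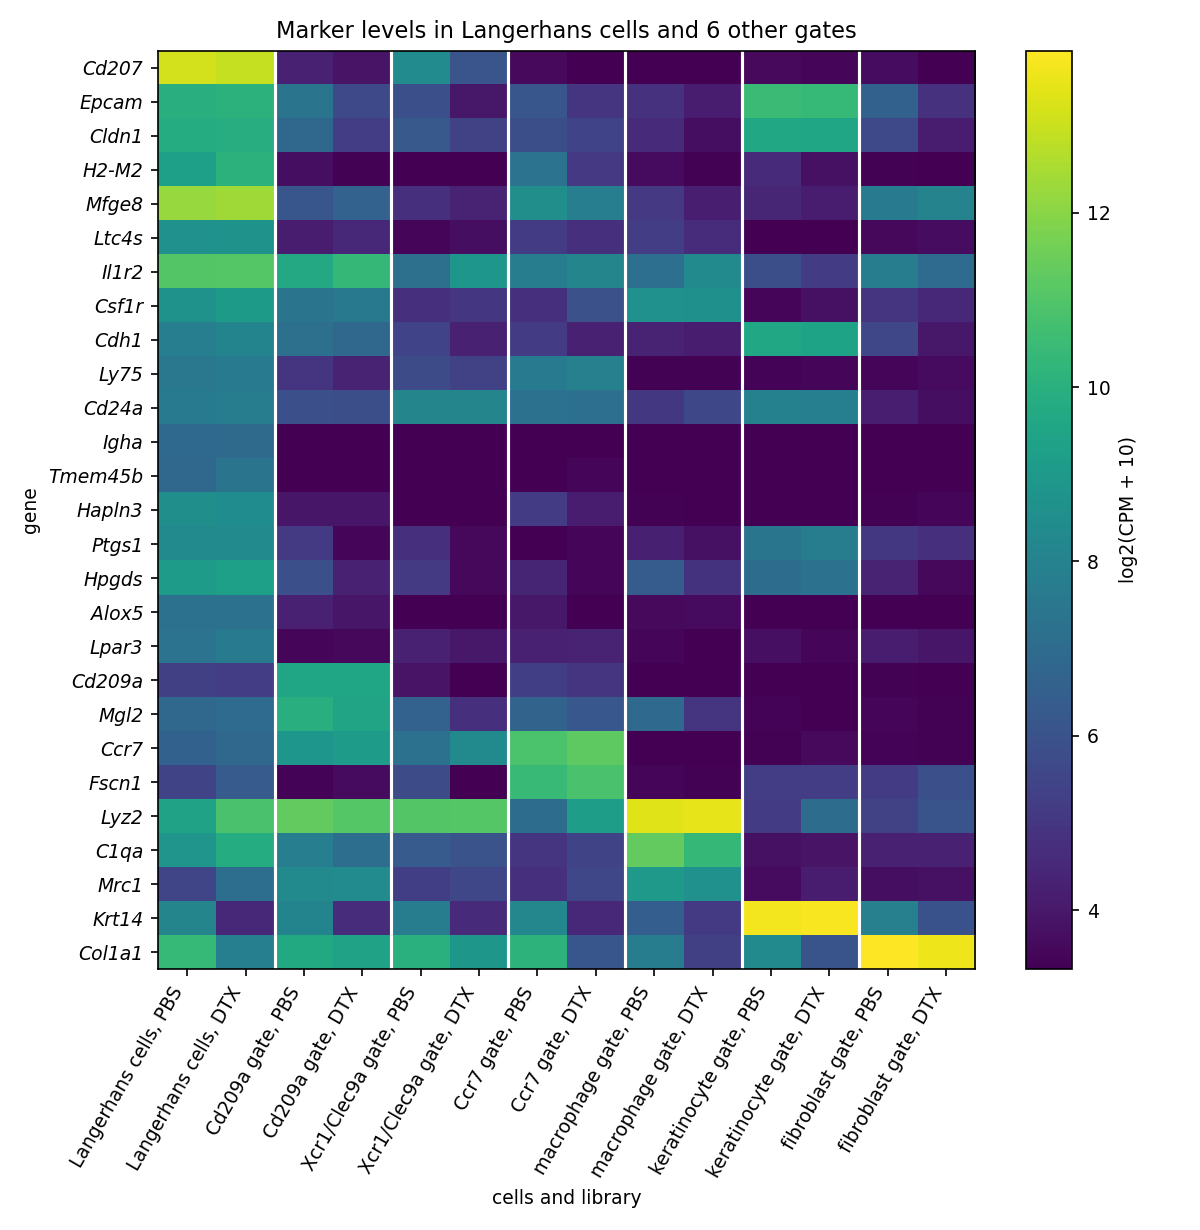
Levels of single genes (rows) as log2(CPM + 10) over UMIs summed within Langerhans cells and 6 other gates, with the PBS and DTX library side by side in each pair of columns. *Cd207*, *Mfge8*, *Ltc4s*, *Igha*, *Tmem45b* and *Hapln3* are bright in both Langerhans columns and dark in nearly all others, while *Krt14* and *Col1a1* are brighter in the PBS than in the DTX Langerhans cells.

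A set of 118 genes, of 4528 with a mean of at least 25 CPM in Langerhans cells, was at least 2-fold over the highest of 4 gates (*Cd209a*, *Xcr1*/*Clec9a*, *Ccr7* and macrophage cells) in both libraries, with 10 CPM added to each level. The *Ccr7* cells had at least 2 UMIs each of *Ccr7* and *Fscn1*. These levels describe cells that were chosen by expression, and no test was made. The 20 genes with the largest difference held 4 genes of the eicosanoid list, of which 7 were among the 4528 compared (0.155%). *Ptgs1*, the gene of cyclooxygenase 1, stood at 322 CPM in each library and at no more than 25 CPM in any of the 4 gates, but at 161 and 213 CPM in keratinocyte cells, which are not among them. *Alox5*, the 5-lipoxygenase, stood at 143 and 149 CPM, *Hpgds*, the hematopoietic prostaglandin D synthase, at 551 and 601 CPM (123 and 141 CPM in keratinocyte cells), and *Ltc4s* is given above. *Pla2g5*, a secreted phospholipase outside that list, stood at 78.6 and 109 CPM. Of the 7 genes of the eicosanoid list that were abundant enough to compare, none was past 2-fold between the libraries, and their median log2 ratio was 0.05.

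*Igha*, the constant region of immunoglobulin A, was among these 20 genes. It had 198 UMIs in 80 of 152 PBS cells and 79 UMIs in 29 of 53 DTX cells, which is 110 and 116 CPM, with 5.05% and 12.7% of the UMIs in the top cell. In the *Cd209a*, *Xcr1*/*Clec9a*, *Ccr7* and keratinocyte cells it had no UMI, and macrophage cells had 1 UMI in the PBS library among 5846657. Fibroblast cells had 10 UMIs and 1 UMI. After thinning it was detected in 20.5% (14.4% to 27.9%) of PBS and 17.3% (8.23% to 30.3%) of DTX Langerhans cells. The transcripts were counted at their 3′ ends on chromosome 12, from 113254830 to 113260236. *Tmem45b*, a transmembrane protein gene, behaved alike, with UMIs in 89 and 32 cells and at most 1 UMI in any of the 4 gates. *Hapln3*, a hyaluronan-binding link protein whose gene lies next to *Mfge8*, stood at 372 and 337 CPM and the lysophosphatidic acid receptor gene *Lpar3* at 150 and 200 CPM.

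Ranked by UMIs without mitochondrial and ribosomal genes, the 15 most abundant genes included *Cd74*, *H2-Ab1*, *H2-Aa* and *H2-Eb1* of antigen presentation by MHC class II, the protease inhibitor *Cst3*, *Cd207* and *Mfge8*. *Cd74*, the invariant chain, stood at 33144 CPM in the PBS and 34743 CPM in the DTX library. Of the MHC class II pathway 11 genes were compared, 8 of them not used by the rule, and none was past 2-fold (median log2 ratio 0.15), and of MHC class I 13 were compared and none was, with a median of 0.31. Of the costimulation and checkpoint list 9 were compared and none was. Among these *Cd86* stood at 507 and 656 CPM and *Cd40* at 261 and 219 CPM. *Cd80* stood at 55.7 and 109 CPM, a log2 ratio of 0.86 (0.51 to 1.41). *Havcr2*, the gene of the inhibitory receptor TIM-3, stood at 416 and 499 CPM, against 151 and 205 CPM in the *Cd209a* cells.

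Across the 4528 genes compared, 76 (1.68%) were at least 2-fold higher and 112 (2.47%) at least 2-fold lower in DTX than in PBS Langerhans cells, on the scale of log2(CPM + 10). The median log2 ratio of all was 0.07. Intervals of single genes are for the ratio of UMIs without the added 10 CPM, so that at low levels a log2 ratio can lie outside its interval. Of the 12 epidermal adhesion genes compared, none was past 2-fold. *Zeb1*, a zinc-finger repressor of E-cadherin, stood at 410 and 446 CPM in Langerhans cells and at 71.9 and 79.5 CPM in the *Cd209a* cells. Of the 16 glycolysis and hypoxia genes compared, none was past 2-fold.

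**Figure D3:**
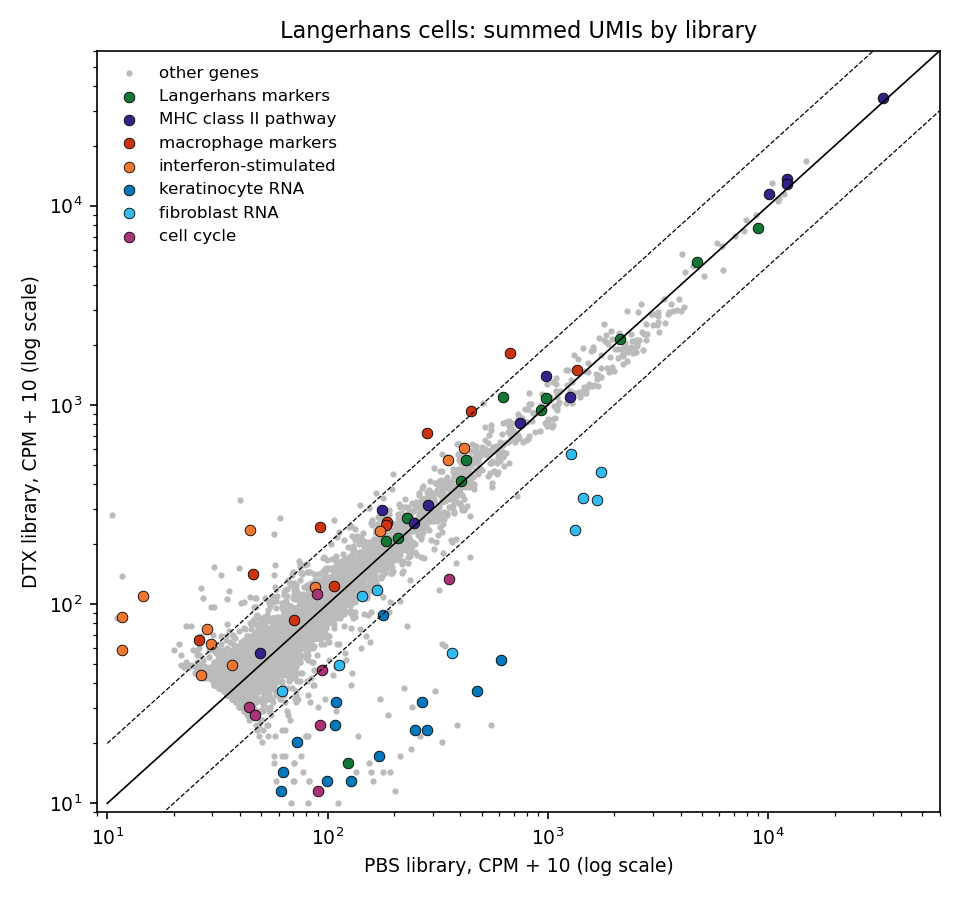
Each point is 1 of 4528 genes, placed by its level in Langerhans cells of the PBS (x) and DTX (y) library in CPM + 10, both on log scales. The solid line marks equal levels and the dashed lines 2-fold differences. Of the 12 markers of Langerhans cells 11 lie between the dashed lines, as all 11 MHC class II genes do (7 of 8 and 8 of 8 of those outside the rule), 14 keratinocyte and 7 fibroblast genes lie below them, and 6 macrophage and 6 interferon-stimulated genes lie above them.

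Genes of keratinocytes and fibroblasts made up most of those that were lower in DTX Langerhans cells. Of the 16 keratinocyte genes listed, 14 were compared and all 14 were at least 2-fold lower (median log2 ratio -3.01). Of the 10 fibroblast genes 7 were, with a median of -1.55, against 2.47% of all genes. Without the top cell of each gene all 10 were, with a median of -3.86, against 4.04% of all genes. *Krt14*, a keratin of basal keratinocytes, had 487 UMIs in 77 PBS cells (271 CPM) and 9 UMIs in the DTX cells (13.2 CPM), and *Col1a1*, the collagen I gene, stood at 1313 and 225 CPM. Of the 12 genes with the largest falls, *Cst6*, *Serpinb2*, *Sprr1a*, *Sfn*, *Ly6d*, *Defb6* and *Krt14* are genes of keratinocytes. Of the 112 lower genes, 93 were at least 2 times as high in PBS keratinocyte or fibroblast cells as in PBS Langerhans cells, against 663 (14.6%) of all 4528 genes compared. Some of these RNAs were lower in DTX cells of other gates, where *Krt14* went from 263 to 15.2 CPM in *Cd209a* cells and from 77.5 to 24.1 CPM in macrophage cells, and 32 of the 112 genes were at least 2-fold lower in the *Cd209a*, *Xcr1*/*Clec9a* and macrophage cells as well, against 36 of all 4528. The keratinocyte list summed to 3400 and 312 CPM in *Cd209a* cells, but to 803 and 534 CPM in macrophage cells.

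This RNA was concentrated in few cells. In the PBS library 11 Langerhans cells had over 1% of their UMIs from the keratinocyte list and 16 from the fibroblast list, up to 7.57% and 12.1%, against medians of 0.0439% and 0.0503% over all 152 cells. Together these were 23 cells, 4 of them over 1% for both lists. The DTX library had 1 such cell, for the fibroblast list, and it held 93.5% of the *Col1a1* UMIs. The 23 PBS cells had a median of 17682 UMIs, against 9996 in the other 129. Scrublet, which scores how closely a cell resembles a sum of 2 cells, called 19 of the 23 doublets and 20 of all 152 PBS Langerhans cells (13.2%), against 4.59% of all filtered PBS cells. In the DTX library it found no threshold of its own, and the 8% of filtered cells with the highest scores were taken, which included the 1 DTX cell and 11 of all 53 Langerhans cells (20.8%). A background remained without these cells, as the median over all cells was 0.0222% for the keratinocyte and 0.00978% for the fibroblast list in the DTX library.

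Without the 23 PBS and 1 DTX cells, 37 of 4384 genes compared (0.844%) were at least 2-fold lower instead of 112, and 29 of the 37 were among the 112. At least 2-fold higher were 95 (2.17%). Of the keratinocyte list 4 of 6 genes compared were lower and of the fibroblast list 3 of 5. *Krt14* then stood at 122 and 14 CPM and *Col1a1* at 75.1 and 15.5 CPM. *Csf1*, a ligand of CSF1R, stood at 71.3 and 11.8 CPM with all cells and at 5.67 and 3.10 CPM without the 24. *Gas6*, a bridge to dying cells, stood at 54.1 and 7.36 CPM with all cells and at 6.38 and 3.10 CPM without them. Without the 24 cells *Csf1* had 8 and 2 UMIs and *Gas6* 9 and 2. Both were then under the mean of 25 CPM needed for comparison. At such levels, with 10 CPM added, neither could be 2-fold lower, so whether their falls remained could not be judged. *Hbegf*, an epidermal growth factor of wounds, had a log2 ratio of -1.36 with all cells and of 0.36 without the 24.

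**Figure D4:**
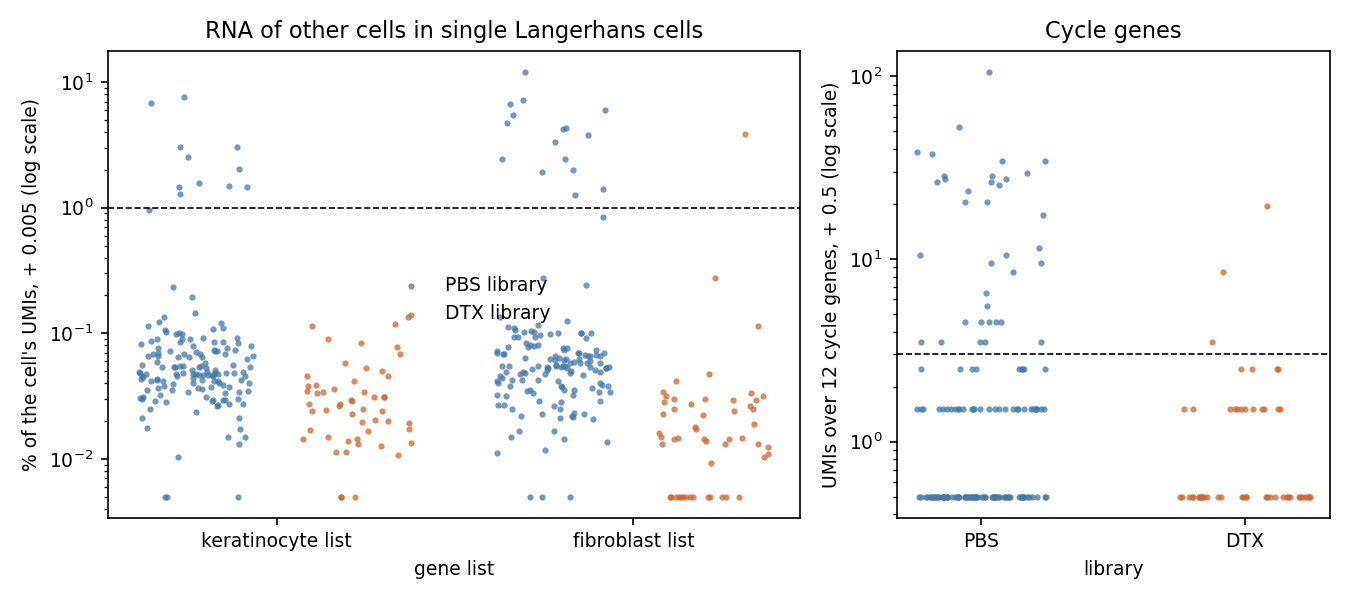
Left, the percentage of each Langerhans cell's UMIs that came from 16 keratinocyte and 10 fibroblast genes, on a log scale, with a dashed line at 1%. Right, UMIs over 12 cycle genes per cell on a log scale, with a dashed line below cells that have at least 3. Points are single cells of the PBS (blue) and DTX (orange) library. In the PBS library 23 cells lie above 1% for either list and 2 just under it, at 0.946% of the keratinocyte and 0.834% of the fibroblast list, and in the DTX library 1 cell lies above 1%.

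Genes of dividing cells were lower in the DTX library, also without these 24 cells. Of the 20 cycle genes listed, 7 were compared and 4 were at least 2-fold lower, against 2.47% of all genes. None was higher (median log2 ratio -1.02). Without the 24 cells 5 of 8 were lower, with a median of -1.36, against 0.844% of all genes in that comparison. *Top2a*, the topoisomerase of dividing cells, had 147 UMIs in the PBS and 10 in the DTX library (81.9 and 14.7 CPM), and *Ube2c*, a ubiquitin carrier of mitotic exit, had 144 and 1. *Mki67*, the gene of the Ki-67 antigen, stood at 84.7 and 36.8 CPM. *Birc5*, the gene of survivin, had 81 UMIs in the PBS and none in the DTX library, at least 10.2-fold lower when 3 UMIs are allowed in the DTX sum. Without the 24 cells the levels of *Top2a* were 89.3 and 15.5 CPM.

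Counted by cell, 36 of 152 PBS Langerhans cells (23.7%, 17.2% to 31.3%) and 3 of 53 DTX cells (5.66%, 1.18% to 15.7%) had at least 3 UMIs over 12 cycle genes, so the intervals did not overlap. Near the threshold, with 2 to 4 UMIs, lay 19 and 5 cells, and 21 and 1 had 10 or more. With every cell thinned to 2000 UMIs, 14 of 151 PBS cells (9.27%, 5.16% to 15.1%) and 0 of 52 DTX cells passed, which allows a share of up to 5.77% at 3 cells and of 6.85% by the 95% interval. After thinning the intervals overlapped. One cell in the PBS and 1 in the DTX library was too shallow to thin. In macrophage cells the thinned shares were 0.0991% and 0.0535%, and in *Cd209a* cells 6.1% (2.96% to 10.9%) and 2.31% (0.633% to 5.81%). In *Xcr1*/*Clec9a* cells they were 7.02% and 6.82%. The DTX share was the higher one in mature dendritic (0 of 55 and 1 of 64 cells), keratinocyte (1.27% and 3.33%) and fibroblast cells (0.62% and 2.79%). The intervals of the *Cd209a* cells overlapped with those of the Langerhans cells in both libraries. The counts of cells with at least 3 UMIs were taken from RNA alone, and free RNA in the droplets can add to them.

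Langerhans cells of the DTX library had more RNA of macrophage genes. Of the 12 macrophage markers 11 were compared and 6 were at least 2-fold higher (median log2 ratio 1.07), against 1.68% of all genes. Without the cells that Scrublet called doublets the median was 0.78. The 12 markers also summed to more in DTX mature dendritic cells, at 796 and 1691 CPM, against 3365 and 6069 CPM in Langerhans cells. In *Cd209a*, *Xcr1*/*Clec9a*, macrophage, keratinocyte and fibroblast cells their sum was lower in the DTX library. *Lyz2*, the lysozyme gene of phagocytes, stood at 664 CPM in the PBS and 1812 CPM in the DTX library, a log2 ratio of 1.43 (1.33 to 1.56). Its UMIs were unevenly spread, in 62 of 152 and 24 of 53 cells, with 31.6% of the DTX UMIs in 1 cell. The 8 DTX cells with 6 to 19 UMIs of *Cd207* had 6062 CPM of *Lyz2* and the 43 with 20 or more had 1056 CPM, against 2546 and 417 CPM in the PBS library. Thinned, it was detected in 19.9% (13.8% to 27.1%) and 34.6% (22.0% to 49.1%) of cells, and in 1.78% and 5.00% of keratinocyte cells.

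The 3 *C1q* genes, which encode the first complement component, were higher too. *C1qa* stood at 435 and 923 CPM, with UMIs in 117 of 152 PBS and 43 of 53 DTX cells, and the cells' median went from 2.76 to 6.35 UMIs per 10000. *C1qb* stood at 273 and 709 CPM and *C1qc* at 82.5 and 234 CPM. Both *C1qa* levels were above those of the *Cd209a* cells (221 and 129 CPM) and under those of the macrophage cells (2549 and 1303 CPM), in which the 3 genes were lower in the DTX library. *Apoe*, the most abundant macrophage marker in PBS Langerhans cells, stood at 1350 and 1484 CPM, and without the 24 cells with keratinocyte or fibroblast RNA at 784 and 1546 CPM. *Adgre1*, the gene of F4/80, stood at 96.4 and 113 CPM and *Cd68*, a lysosomal marker, at 176 and 247 CPM. Of 4 monocyte genes compared, 3 were higher, against 1.68% of all genes. Among the 3, *Plac8* went from 46.8 to 130 CPM, with UMIs in 15 PBS and 14 DTX cells. The summed level of the 6 listed monocyte genes was higher in the DTX library in the other gates too, at 591 and 1438 CPM in *Cd209a*, 1520 and 5090 CPM in macrophage and 14.6 and 84.5 CPM in keratinocyte cells, against 119 and 334 CPM in Langerhans cells. *Plac8* stood at 394 and 916 CPM in *Cd209a* cells.

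**Figure D5:**
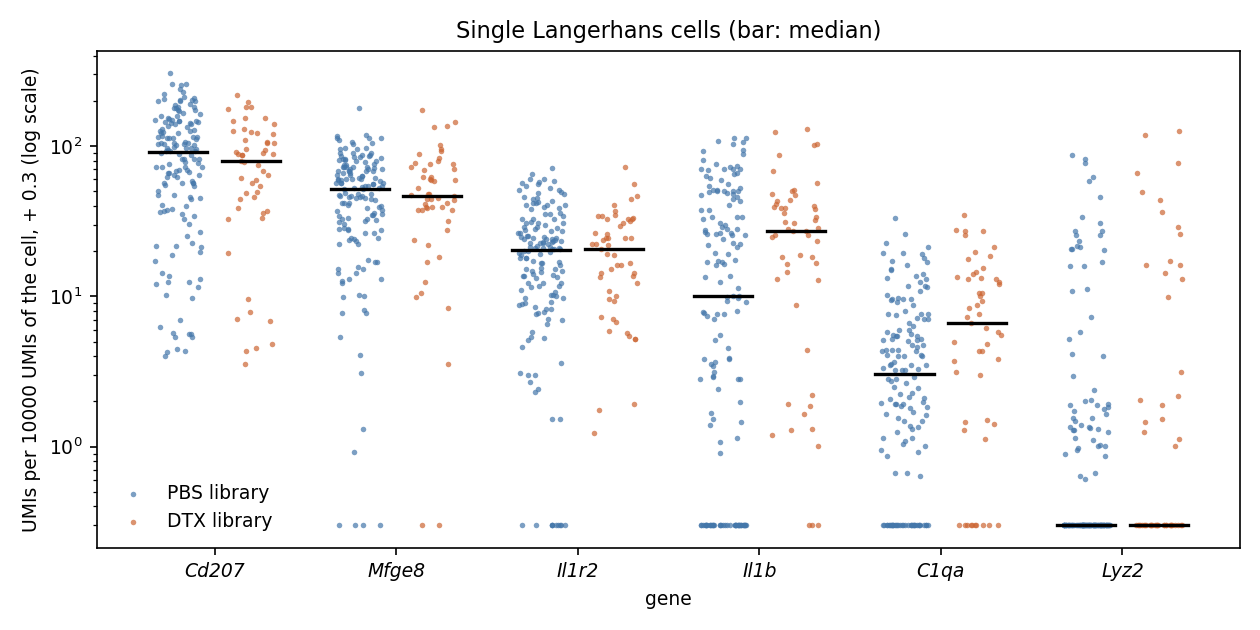
Single Langerhans cells of the PBS (blue) and DTX (orange) library, with UMIs of 6 genes per 10000 UMIs of the cell on a log scale and a bar at the median. The medians of *Cd207*, *Mfge8* and *Il1r2* were alike, those of *Il1b* and *C1qa* were higher in the DTX library (27.0 against 9.71 and 6.35 against 2.76), and that of *Lyz2* was 0 in both.

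Inflammatory genes were a mixed group. Of 19 compared, 3 were at least 2-fold higher (*Cxcl3*, *Cxcl10* and *Osm*) and 1 lower (median log2 ratio 0.03), against 1.68% and 2.47% of all genes. Without the 24 cells with keratinocyte or fibroblast RNA 7 of 20 were higher and 1 was lower (median 0.30), against 2.17% and 0.844% of all genes in the same comparison. Without the top cell of each gene 1 was higher and 2 were lower (median -0.29), against 0.883% and 4.04% of all genes. *Il1b*, the gene of interleukin-1β, was the most abundant, at 2630 and 3209 CPM. It was detected in 112 of 152 PBS and 50 of 53 DTX cells, and after thinning in 62.3% (54.0% to 70.0%) and 82.7% (69.7% to 91.8%). In keratinocyte cells 1.78% and 3.33% had a UMI after thinning. *Cxcl2*, a chemokine for neutrophils, stood at 1911 and 1740 CPM, and *Tnf* at 59.1 and 36.8 CPM. *Osm*, the gene of oncostatin M, stood at 20.6 CPM in the PBS and 144 CPM in the DTX library, a log2 ratio of 2.33 (2.25 to 3.39), with UMIs in 18 PBS and 14 DTX cells and 32.7% of the DTX UMIs in 1 cell. *Ccl17*, a chemokine of dendritic cells, was the lower gene, at 119 and 35.3 CPM. *Il1rn*, the gene of the interleukin-1 receptor antagonist, stood at 144 and 294 CPM.

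Several of the largest rises came from single cells. The 12 were *Rgs5*, *Ccl12*, *Cxcl10*, *Rsad2*, *Isg15*, *Osm*, *Clec4e*, *Ccl9*, *Slfn5*, *Ccr1*, *Pf4* and *Cryab*. *Rgs5*, a gene of pericytes, had 1 and 183 UMIs, and 98.9% of the DTX UMIs were in 1 cell. *Cxcl10*, a chemokine induced by interferon, had 54 and 220 UMIs with 98.2% in 1 cell. Of the 76 higher genes 21 had at least 50% of their DTX UMIs in 1 cell, and of the 112 lower genes 8 had as much of their PBS UMIs in 1 cell. Of the 12 interferon-stimulated genes compared, 6 were higher, with a median of 0.90, against 1.68% of all genes. Without the top cell of each gene 2 were higher, against 0.883% of all genes. With the cells that carry keratinocyte or fibroblast RNA left out, 7 of 11 were higher, with a median of 1.48. In that comparison 2.17% of all genes were higher. The summed level of the 18 listed genes was higher in the DTX library in each other gate too. Its log2 ratio was 0.97 in Langerhans, 0.84 in *Cd209a*, 1.17 in *Xcr1*/*Clec9a* and 0.52 in macrophage cells. In mature dendritic, keratinocyte and fibroblast cells the ratio was 0.45, 0.49 and 0.41. *Clec4e*, the receptor Mincle, and *Ccr1*, a receptor of inflammatory chemokines, were spread more widely. *Clec4e* had 30 UMIs in 14 PBS and 75 UMIs in 15 DTX cells, and *Ccr1* had 31 UMIs in 16 and 66 UMIs in 19 cells. Both are genes of macrophages too, and *Ccr1* stood at 196 and 517 CPM in macrophage cells. Of the 76 higher genes, 46 were at least 2 times as high in DTX macrophage cells as in DTX Langerhans cells, against 392 (8.66%) of all 4528, and the part of macrophage RNA in these differences was not tested.

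The genes that direct Langerhans cells through TGF-β and their lineage factors were a list of 26, of which 19 were compared. At least 2-fold higher was 1 of them, near the background of all genes (median log2 ratio 0.18). Without the 24 cells with keratinocyte or fibroblast RNA 3 of 18 were, against 2.17% of all genes in the same comparison. *Tgfb1*, which Langerhans cells make and need, stood at 85.3 and 160 CPM, a log2 ratio of 0.84 (0.54 to 1.28). *Runx3*, a transcription factor of the lineage, stood at 214 and 297 CPM, *Id2* at 278 and 346 CPM and *Spi1*, the gene of PU.1, at 384 and 437 CPM. *Tgfbr1* and *Tgfbr2*, the receptor chains, stood at 50.7 and 33.9 CPM and at 49.0 and 44.2 CPM. *Il34*, the keratinocyte ligand of CSF1R, had 2 and 3 UMIs in Langerhans cells.

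The 16 growth factors of wound repair summed to 1003 CPM in PBS and 1278 CPM in DTX Langerhans cells, against 1755 and 1887 CPM in *Cd209a* and 643 and 638 CPM in *Xcr1*/*Clec9a* cells. The most abundant was *Grn*, the gene of progranulin, at 303 and 393 CPM. *Areg*, an epidermal growth factor, stood at 183 and 208 CPM, with 64.5% of its DTX UMIs in 1 cell. Of 9 compared *Osm* was at least 2-fold higher and *Hbegf*, *Gas6* and *Csf1* lower, against 1.68% and 2.47% of all genes. Without the 24 cells 2 of 6 were higher and none was lower, against 2.17% and 0.844% of all genes in that comparison. *Hbegf*, *Gas6* and *Csf1* were then under the limit of 25 CPM and not among the 6. *Pdgfa*, a mitogen for fibroblasts, had 19 UMIs in the PBS and 16 in the DTX library (10.6 and 23.6 CPM), *Pdgfb* had 4 and 1, and *Igf1* had 28 and 9. *Vegfa* stood at 126 and 210 CPM, a log2 ratio of 0.70 (0.43 to 1.05). Of the receptors for dying cells, *Timd4*, which binds phosphatidylserine, stood at 115 and 233 CPM, with UMIs in 67 of 152 and 23 of 53 cells, and had 2 UMIs in all PBS macrophage cells. The *Xcr1*/*Clec9a* cells carried it as well, at 107 and 103 CPM. After thinning it was detected in 22.5% and 25% of Langerhans and 21.1% and 13.6% of *Xcr1*/*Clec9a* cells. Of 6 genes of dying cell uptake compared, only *Gas6* was past 2-fold, and of 6 colony-stimulating factor genes only *Csf1* was. Of 10 lectin and pattern receptor genes *Mrc1* was higher and none lower, and of 9 migration genes *Ccr1* and *Cxcr4* were higher and none lower. In the same comparison 1.68% of all genes were higher and 2.47% lower.

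Few Langerhans cells carried *Ccr7*, and of 8 markers of mature dendritic cells compared between the libraries none was past 2-fold. After thinning it was detected in 5.96% (2.76% to 11%) of PBS and 9.62% (3.20% to 21.0%) of DTX cells, against 35.4% and 34.1% of *Cd209a* cells and 0.127% of PBS keratinocyte cells and 0 of 60 DTX keratinocyte cells, which allows a share of up to 5.00% at 3 cells and of 5.96% by the 95% interval. Without thinning 10.5% and 17.0% of Langerhans cells had a UMI. At least 2 UMIs were found in 12 PBS and 7 DTX cells, and 4 and 2 of these had at least 2 UMIs of *Fscn1*, an actin-bundling gene of mature dendritic cells. Compared with the 136 and 44 cells that had none, these cells had more *Fscn1* (318 against 1.91 CPM in the PBS and 474 against 1.78 CPM in the DTX library), *Il4i1* (372 against 33.7 and 424 against 42.8 CPM) and *Ccl22* (819 against 91.0 and 484 against 74.9 CPM). Each of these 3 genes is known from mature dendritic cells. Not all listed markers of mature dendritic cells followed. *Marcksl1* was higher in the PBS (690 against 274 CPM) but lower in the DTX cells with *Ccr7* (172 against 349 CPM). *Relb* was nearly alike (178 against 144 and 182 against 169 CPM), while *Cacnb3*, *Tmem123* and *Socs2* were higher in both libraries. *Cd207* was lower in the cells with *Ccr7* in both libraries, at 6314 against 9183 CPM and 5823 against 7915 CPM. *Mfge8* was alike, at 5166 against 4658 and 5318 against 5071 CPM. Among Langerhans cells *Ccr7* was highest near the threshold on *Cd207*. It stood at 453 CPM in the 8 PBS and 1375 CPM in the 2 DTX cells with 3 to 5 UMIs of *Cd207*, against 63.7 and 51.0 CPM in those with 20 or more. In the 13 PBS and 3 DTX cells just outside, with 1 or 2 UMIs, it stood at 490 and 24.8 CPM. The cells with 3 to 5 UMIs also held the type 2 dendritic cell genes *Mgl2* (890 and 1415 CPM) and *Cd209a* (404 CPM in both). *Ccl5* had 343 of its 345 PBS UMIs in cells with *Ccr7*, and 90.4% of all were in 1 cell.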

How the data were processed

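The authors sorted live cells, captured them with a 10x Genomics 3′ kit (v3) and ran Cell Ranger against mm10. The deposited matrices hold whole-number UMI counts for each gene in each barcode, not normalized. The file headers and the submitters' processing notes give Cell Ranger 6.1.1, and the methods give an earlier release. Each deposited matrix holds 31053 genes, and the PBS and DTX libraries hold 12058 and 11031 barcodes with 105511870 and 81858751 UMIs. The study's text gives the same barcode numbers to the opposite groups, and the labels were followed.

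The filter of the methods was used without its upper limit of 2000 genes, which 130 of 152 and 49 of 53 Langerhans cells exceed. Counts were summed over the cells of a gate, scaled to CPM and compared as log2 ratios of DTX to PBS with 10 CPM added. Genes with a mean of at least 25 CPM were compared, and a gene counted as called at 2-fold. Ratio intervals are exact conditional binomial, share intervals Clopper-Pearson. Shares of cells with a UMI were also taken after thinning to 2000 UMIs. A sum of 0 was set to 3 UMIs for a bound. UMIs are read at the 3′ end, so levels carry no length term.

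Genes were named by rule as list examples, the 12 largest rises and falls with a mean of at least 50 CPM, the 20 genes with the largest difference from other gates, the 12 of *Ccr7* cells and the 15 most abundant. Which list members serve as examples was chosen after their values were seen. The Langerhans cell rule, the 27 gene lists (345 of 347 genes found) and the tests were chosen with earlier results of these data known. Ratios and intervals were tested on simulated counts drawn independently for each gene. These counts hold no clumping of UMIs in single cells, so how the intervals fare with such clumping was not tested. Python 3.11.15, numpy 2.4.6, scipy 1.17.1, pandas 2.3.3, scanpy 1.11.5 (Scrublet), matplotlib 3.10.9, and R 4.3.3 with edgeR 4.0.16 for the TMM scaling were used. No sequences were needed. Some genes of the lists are counted but not reported here.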

Additional observations from a re-analysis of the deposited data

Results flagged for a closer look

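*C1qc* differed in direction between Langerhans and macrophage cells. In Langerhans cells it stood at 82.5 CPM in the PBS and 234 CPM in the DTX library, a log2 ratio of 1.40, and in macrophage cells at 1221 and 605 CPM, a log2 ratio of -1.0. This difference was not tested, since each treatment has 1 library, and the macrophage cells were chosen in part by their *C1qc* UMIs.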

How the results depend on the processing

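With 1 library per treatment no library could be left out, and no direction was tested. No paired analysis was possible because each treatment has 1 library. Of the main values recomputed under each alternative, 379 stayed within their counting interval or, for a count, within 1.5 times, 76 moved further and 1 reversed. Of the log2 ratios of single named genes 548 stayed, 233 moved further and 17 reversed. Alternatives on *Cd207* at 20 UMIs, on cells with keratinocyte or fibroblast RNA and on the top cell of each gene were chosen after seeing the data. Depth limits the DTX side, where 53 cells carry every level.

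The counts of genes 2-fold higher and lower, 76 and 112, became 122 and 140 with 1 CPM added, 19 and 31 with a mean of at least 100 CPM, 138 and 236 without a low-value filter, 56 and 123 with TMM scaling (which moved the median log2 ratio to -0.01), 50 and 100 with the mean of per-cell fractions, 323 and 242 after thinning, 59 and 52 without Scrublet doublets, 95 and 37 without the 24 cells with other RNA, and 40 and 183 without the top cell of each gene, which takes a larger part from the 53 DTX cells by construction.

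Median log2 ratios moved as follows. For the keratinocyte list they were -2.70 without the filter, -2.91 with per-cell fractions, -2.87 with *Cd207* at 5 UMIs, -2.63 at 20 UMIs, -1.45 without doublets, -1.33 without the 24 cells, -2.89 without *Ccr7* cells and -2.47 without top cells. For the fibroblast list they were -2.37 with per-cell fractions, -2.53 thinned, -1.27 with *Cd207* at 20 UMIs and -3.86 without top cells. For macrophage markers they were 0.77 at 100 CPM, 0.88 with per-cell fractions, 0.84 thinned and 0.78 without doublets. Growth factors had 0.041 without the filter, 0.59 without doublets, 0.76 both with *Cd207* at 20 UMIs and without the 24 cells, and -0.61 without top cells. Interferon-stimulated genes had 0.56 at 100 CPM and 0.28 without top cells, inflammatory genes 0.30 without the 24 cells and -0.29 without top cells, and monocyte genes 1.15 without the filter and 1.28 without top cells. Costimulation genes had 0.0066 at 100 CPM and 0.044 thinned, MHC class II genes 0.0014 without the 24 cells, and cycle genes -2.12 with *Cd207* at 20 UMIs.

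The fall of *Hbegf* was lost, at 0.011 without doublets and 0.36 (-0.69 to 1.92) without the 24 cells, where it had 14 and 10 UMIs. That of *Ccl5* was lost without *Ccr7* cells, at 0.064. *Cryab* and *Cxcl10* reversed to -0.54 and -0.87 without the top cell. Without thinning 23.7% of PBS cells counted as cycling. With *Cd207* at 20 UMIs the PBS share was 1.54% of filtered and 6.26% of MHC class II cells, and the latter was 6.31% without the 24 cells.

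The limit of 2000 genes per cell left 22 PBS and 4 DTX Langerhans cells, so its values rest on 4 cells. The shares became 0.872% and 0.151% of filtered (log2 ratio -2.53), 0.646% and 0.0529% of *Ptprc* (-3.61) and 1.83% and 0.533% of MHC class II cells. No PBS cell then counted as cycling (0%) and no DTX cell had *Ccr7* (0%). There 1272 genes were higher and 1105 lower. Median log2 ratios were -0.28 for Langerhans, 1.53 for type 2 dendritic, -1.32 for mature dendritic and -0.89 for macrophage markers, which reversed. They were -2.88 for fibroblast, -0.44 for TGF-β, -0.28 for colony-stimulating factor, 0.48 for MHC class II, -0.25 for MHC class I, -2.61 for migration, -1.55 for adhesion, 0.53 for eicosanoid, -0.38 for inflammatory, -0.46 for interferon-stimulated, -0.017 for growth factor, -1.29 for dying cell uptake, -0.12 for lectin and -1.36 for stress genes. Single genes reversed too, with *C1qa* at -0.17, *C1qc* at -2.02, *Ccl17* at 2.82, *Lyz2* at -4.55, *Krt14* at 0.69, *Saa3* at 0.79, *Cxcl10* and *Ccr1* at -1.60, and *Osm*, *Ccl9*, *Pf4* and *Cryab* at -1.01.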

Other observations

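*Gm47283* differed between the libraries in Langerhans cells and in each of the 6 other gates. It had 271 UMIs in 109 of 152 PBS Langerhans cells and 2 UMIs in the DTX library, and stood at 144 and 1.38 CPM in *Cd209a*, 127 and 2.17 CPM in macrophage and 188 and 7.55 CPM in fibroblast cells. *Mid1* had 125 and 8 UMIs in Langerhans cells and stood at 148 and 1.82 CPM in macrophage cells. *Slc15a2* went the other way. This gene of a peptide transporter had no UMI in PBS and 5 UMIs in DTX Langerhans cells, and 0 and 171 UMIs in macrophage cells. *Ddx3y*, a Y-linked gene, stood at 119 and 127 CPM in Langerhans cells and *Xist* had no UMI in either. These genes were chosen after their values had been seen.

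Of 17 immediate early and heat shock genes compared, 3 were at least 2-fold lower in DTX Langerhans cells, against 2.47% of all genes. None was higher, and the median log2 ratio was -0.50. With the 24 cells that carry RNA of keratinocytes or fibroblasts left out 2 were lower, with a median of -0.22. In that comparison 0.844% of all genes were lower. *Hspa1a*, an inducible heat shock gene, stood at 431 and 162 CPM, and without these cells at 405 and 171 CPM. *Egr1*, an immediate early gene, stood at 309 and 107 CPM and without these cells at 126 and 106 CPM.

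Type 1 dendritic cells carried *Cd207* as well. In the *Xcr1*/*Clec9a* cells it stood at 332 CPM in the PBS and 59.3 CPM in the DTX library, from 282 and 38 UMIs, while *Mfge8* stood at 17.7 and 10.9 CPM there.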
